A study of Canis lupus familiaris with 34 samples.

Results

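Transcript levels of NRF2 and its antioxidant target genes were followed in osteosarcoma of dogs, a malignant tumour of bone. The genes were a list of 9 symbols: NFE2L2, which encodes NRF2, its inhibitor KEAP1, and the targets GCLC, GCLM, GSR, TXNRD1, SRXN1, NQO1 and HMOX1. The platform annotation gave 8 of the 9 at least 1 probe set, all 8 passed the filter on dim signals, and they were among 7849 genes tested. SRXN1 is named only. The 8 genes had 18 probe sets, of which 15 passed the filter, and none of the 8 genes passed it through a single group. Probe sets C and D of TXNRD1, described below, passed it through line arrays alone.

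The 34 Affymetrix Canine_2 arrays came from 31 dogs, and every sample was osteosarcoma, with no normal bone analysed here. Cell lines from primary tumours took 25 arrays from 24 dogs. Their sex label was female on 11 arrays, which include 2 of dog 22, male on 13 and empty on 1. Lines from metastases took 3 arrays (1 female, 2 male) and snap-frozen primary tumour tissue took 6 (5 female, 1 male). The breed label was Rottweiler on 10 primary line arrays, 2 metastatic line arrays and 0 tissue arrays, and Golden Retriever on 8, 0 and 3. The other primary line arrays were labelled German Shepherd (2), Saint Bernard, Great Pyrenees, Mastiff, Alaskan Malamute and unknown (1 each), the other metastatic line Rhodesian Ridgeback, and the other tissues Great Pyrenees, Belgian tervuren and Borzoi. The age label ran from 2 to 11.19 over the 23 primary line arrays that had one, from 2.39 to 6.31 in the metastatic lines and from 2.67 to 11.91 in the tissues, with no unit given. The treatment label was SOC without further remark (the submitters do not expand this abbreviation) on 11 primary line arrays, 1 metastatic line array and 3 tissue arrays, and was AMP, PALL, ABX, a starred form of SOC or empty on the others. These were treatments of the dogs, and no treatment of the cultures is given in the labels. Each line came from the tumour of 1 dog and was labelled an osteosarcoma cell line, with no purity given, whereas a tissue also holds other cells. Dog 22 gave 2 line arrays, which were averaged, so 24 primary lines entered the tests. These arrays were kept apart where title prefixes were fitted or separated for lines against tissues, and for co-variation within title prefix 2. The dog 22 line array of title prefix 3 shares its dog with tissue 5.

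NRF2 is a transcription factor that is held at low levels in unstressed cells because KEAP1 links it to a ubiquitin ligase. When oxidants or electrophiles modify KEAP1, NRF2 escapes degradation, enters the nucleus and, with small MAF partners, binds antioxidant response elements near genes for glutathione synthesis, the thioredoxin system, NADPH supply, quinone reduction and haem breakdown. NRF2 activity is thus set largely by protein stability, which these arrays did not measure, and its targets' transcripts are commonly read as its output.

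Arrays stood apart in several ways that touch the values below. Titles carried 1 of 3 prefixes, treated here as possible batches: 4 primary lines carried title prefix 1, another 19 carried title prefix 2 together with all 3 metastatic lines, and 2 primary line arrays shared title prefix 3 with all 6 tissues. The closest pair of line arrays, primary lines 5 and 9 of different dogs, correlated at r = 0.98 over kept probe sets, as did primary lines 17 and 24, against a median of 0.87 over pairs of line arrays. The line arrays of dog 22, 1 of title prefix 2 and 1 of title prefix 3, correlated at 0.91. Primary line 4 had a summed macrophage marker level of 13.81 (log2 of the summed intensity of 12 markers), inside the tissue range of 12.44 to 14.68, while the median primary line had 6.10. Its summed endothelial marker level of 14.96 lay above all 6 tissues. All 12 tested macrophage markers and all 5 tested endothelial markers were lower in lines than in tissues, and no T and NK cell marker and no erythroid marker passed the filter. Lines were also lower at 3 of 4 tested osteoclast markers, 3 of 4 adipocyte markers and 5 of 10 osteoblast markers. All 10 tested osteoblast markers were measured in both sample types, with summed levels of 13.89 to 15.80 in primary lines and 15.87 to 16.54 in tissues. The difference between 3′ and 5′ actin probe sets, a measure of RNA integrity, averaged 2.59 in tissues, 0.59, 1.55 and 2.28 in the primary line arrays of title prefixes 1, 2 and 3, and 1.74 in metastatic lines. Among the metastatic lines, line 1 stood apart at 3.95, with the others at 0.65 and 0.63. Actin differences reached 4.035 in primary lines of title prefix 2 and 4.61 in tissues, so 3.95 was not extreme for the series. The GAPDH difference of metastatic line 1, 5.92, exceeded the highest of every other group (4.17 or less). The GAPDH difference averaged 3.20 in tissues and 2.99 to 3.18 in primary line arrays by title prefix.

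Primary lines were first compared with tissues, which is the comparison named in the series design. All levels are log2 of the deposited intensity and all differences are log2 differences, primary line minus tissue. A gene was called when the limma fit gave an adjusted p under 0.05 and the difference was at least 2-fold. Of the 8 genes, NQO1 and GCLM were called higher in lines, HMOX1 was called higher in tissues, and GCLC, GSR, TXNRD1, NFE2L2 and KEAP1 were not called. The background over all genes was 14.6% called, 5.57% higher in lines and 9.06% higher in tissues. The median difference of the 8 genes was 0.49 against -0.05 over all genes. In bulk samples such as the tissues, fewer tumour cells and less RNA per tumour cell cannot be told apart.

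NFE2L2 itself ranged from 10.41 (primary line 25) to 12.76 (primary line 4) in primary lines, with a median of 11.32. In the tissues numbered 1 to 6 it was 11.39, 11.07, 10.74, 12.60, 9.98 and 9.64. The groups overlapped, with tissues 5 and 6 below every line and tissue 4 above all lines but primary line 4. The difference of 0.49 (SE 0.28, 95% confidence interval -0.09 to 1.07) was not called (limma, adjusted p = 0.219). A second NFE2L2 probe set had a larger difference of 1.58 (SE 0.51), which was called when every kept probe set was fitted on its own (limma, adjusted p = 0.0221), and 4 of 6 tissues lay below all 24 lines there. The main probe set turned to -0.13 in the fit with a title prefix term and within title prefix 3 (limma, adjusted p = 0.903 and 0.938). All 6 tissues carry title prefix 3, so both fits rest on its 2 line arrays and give the same estimate for each gene. At the second probe set the 2 line arrays of title prefix 3 averaged 7.07, against 6.74 in the 6 tissues. Both probe sets correlated at 0.84 over the 24 lines. In the fit of every kept probe set the background was 15.9% called.

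KEAP1, the adaptor that presents NRF2 for degradation, was not called. Primary lines spanned 7.33 (primary line 4) to 8.77 (primary line 1) around a median of 7.97. Tissues were at 7.83, 8.09, 7.57, 8.74, 7.96 and 7.46, inside the range of the lines. The difference was 0.08 (95% confidence interval -0.31 to 0.48; limma, adjusted p = 0.799). Tissue 4 had the highest tissue level of KEAP1, NFE2L2, NQO1, GCLC and GSR alike.

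GCLM and GCLC encode the modifier and catalytic subunits of glutamate-cysteine ligase, the rate-limiting enzyme of glutathione synthesis, and they gave different results. GCLM ran from 8.47 (primary line 17) through a median of 9.72 to 10.68 (primary line 21) in primary lines. Tissues had GCLM at 7.33, 8.61, 9.24, 8.87, 7.04 and 8.62, and 20 of 24 lines exceeded the highest tissue. GCLM was 2.65-fold higher in lines (1.40, SE 0.27; 9.69 ± 0.54 SD, n = 24, against 8.28 ± 0.89 SD, n = 6; limma, adjusted p = 0.000265), and its second probe set had 1.19 (limma, adjusted p = 0.00194). The GCLM difference was 0.86 in the fit with a title prefix term and within title prefix 3 (limma, adjusted p = 0.276 and 0.462). Both are the same contrast of 2 line arrays with the tissues, and that call did not hold there. In females alone GCLM had 1.32 (limma, adjusted p = 0.0595).

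GCLC ranged over the primary lines from 3.72 (primary line 24) through a median of 5.59 to 7.48 (primary line 12). Tissue levels of GCLC were 5.26, 5.27, 5.25, 7.32, 4.66 and 5.78, so 5 of 6 tissues lay within a narrow band and tissue 4 near the top of the lines. The GCLC difference of 0.16 (95% confidence interval -0.70 to 1.02) was not called (limma, adjusted p = 0.820). GCLC exceeded log2 5, the level used as the filter, on 19 of 24 lines and 5 of 6 tissues.

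GSR, which encodes glutathione reductase and returns oxidised glutathione to its reduced form, had means over 2-fold apart and missed the adjusted p. Primary lines ran from 5.14 (primary line 24) through a median of 6.94 to 8.77 (primary line 1). GSR in tissues was 4.71, 5.06, 5.96, 6.89, 5.97 and 6.80, and 12 of 24 lines exceeded all tissues. The difference was 1.17 (SE 0.45; limma, adjusted p = 0.0561). It passed the call after quantile normalization (1.34, adjusted p = 0.0203), with array weights (1.36, adjusted p = 0.0419), without tissue 4 (1.37, adjusted p = 0.0417) and without tissue 6 (1.35, adjusted p = 0.0469; limma in each). It was 0.93 without the 4 lines of title prefix 1 (limma, adjusted p = 0.115). Among females it was 0.78 (limma, adjusted p = 0.283).

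TXNRD1 encodes the cytosolic thioredoxin reductase, a selenoenzyme that keeps thioredoxin reduced. Its brightest probe set, called A here, stood for the gene. At probe set A, primary lines ran from 8.61 (primary line 6) through 10.73 to 11.53 (primary line 23), and tissues were at 9.92, 10.08, 10.66, 9.46, 9.59 and 10.05. Tissues lay inside the range of the lines, with 13 of 24 lines above all tissues, 3 below all and 17 above the tissue median. The difference of 0.50 was not called (limma, adjusted p = 0.311). Without the 4 lines of title prefix 1 the difference was 0.36. The fit with a title prefix term and that within title prefix 3 gave the same 1.84, called in each (limma, adjusted p = 0.0363 and 0.0415). Both are 1 contrast that rests on 2 line arrays, and the line arrays of dog 22 differed by 1.88 at TXNRD1. Probe sets B, C and D follow in order of their mean signal. Probe set B was called with a difference of 2.20 (SE 0.51; limma, adjusted p = 0.00201). Probe set C exceeded log2 5 on 7 of 24 primary lines and D on 4, each on 0 of 6 tissues. They were kept through the lines, so their differences, 1.57 and 1.21, are given no test.

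NQO1, the quinone reductase often used as an index of NRF2 activity, had the largest difference of the 8 genes. In primary lines it ran from 8.21 (primary line 25) through a median of 10.54 to 12.92 (primary line 4). Tissues had NQO1 at 6.82, 7.21, 5.62, 9.57, 5.85 and 7.04. The levels of 5 of 6 tissues lay below every primary line, and 21 of 24 lines exceeded tissue 4, the one tissue inside the range of the lines. NQO1 was 12.6-fold higher in lines (3.66, SE 0.59; 10.68 ± 1.09 SD, n = 24, against 7.02 ± 1.41 SD, n = 6; limma, adjusted p = 2.0e-05). A second probe set had a difference of 4.26 (SE 0.49; limma, adjusted p = 4.8e-08). The difference was 4.17 without tissue 4, 3.37 without the 4 lines of title prefix 1 and 3.65 in the fit with a title prefix term (limma, adjusted p = 0.0195). The same contrast of 2 line arrays with 6 tissues, fitted within title prefix 3 alone, gave the same 3.65 and was not called (limma, adjusted p = 0.0731).

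HMOX1 encodes haem oxygenase 1, which breaks haem into biliverdin, iron and carbon monoxide, and it was the only one of the 8 genes called higher in tissues. It was dim in most lines: 5 of 24 primary lines exceeded log2 5, namely primary lines 8 (8.26), 20 (6.10), 10 (5.87), 13 (5.58) and 9 (5.22), and the median was 3.22. Tissues were at 4.21, 7.89, 6.89, 5.66, 6.37 and 4.15, with 4 of 6 over log2 5. The groups overlapped, and primary line 8 was above every tissue. The tissue mean was 3.86-fold higher (difference -1.95, SE 0.66; 3.91 ± 1.45 SD, n = 24, against 5.86 ± 1.49 SD, n = 6; limma, adjusted p = 0.0303).

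The HMOX1 call depended on single samples and on the batch term. It was lost without tissue 2 (-1.54, adjusted p = 0.109), tissue 3 (-1.74, adjusted p = 0.0864) or tissue 5 (-1.85, adjusted p = 0.0689), and without the lines of title prefix 1 (-1.84, adjusted p = 0.0567; limma in each). It was also lost with array weights (-1.37; limma, adjusted p = 0.231). The fit with a title prefix term and that within title prefix 3 share 1 contrast, which gave -2.79 without a call (limma, adjusted p = 0.144 and 0.158). HMOX1 is also a macrophage transcript. The summed macrophage marker level was 14.13, 13.70, 13.54, 12.44, 14.68 and 12.55 in the tissues numbered 1 to 6, so tissue 1 had little HMOX1 beside a high marker sum. Primary line 8, with the most HMOX1, had a marker sum of 6.11, and primary line 4, with a marker sum of 13.81, had HMOX1 at 2.82. The part of macrophages in the difference was not tested.

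**Figure D1:**
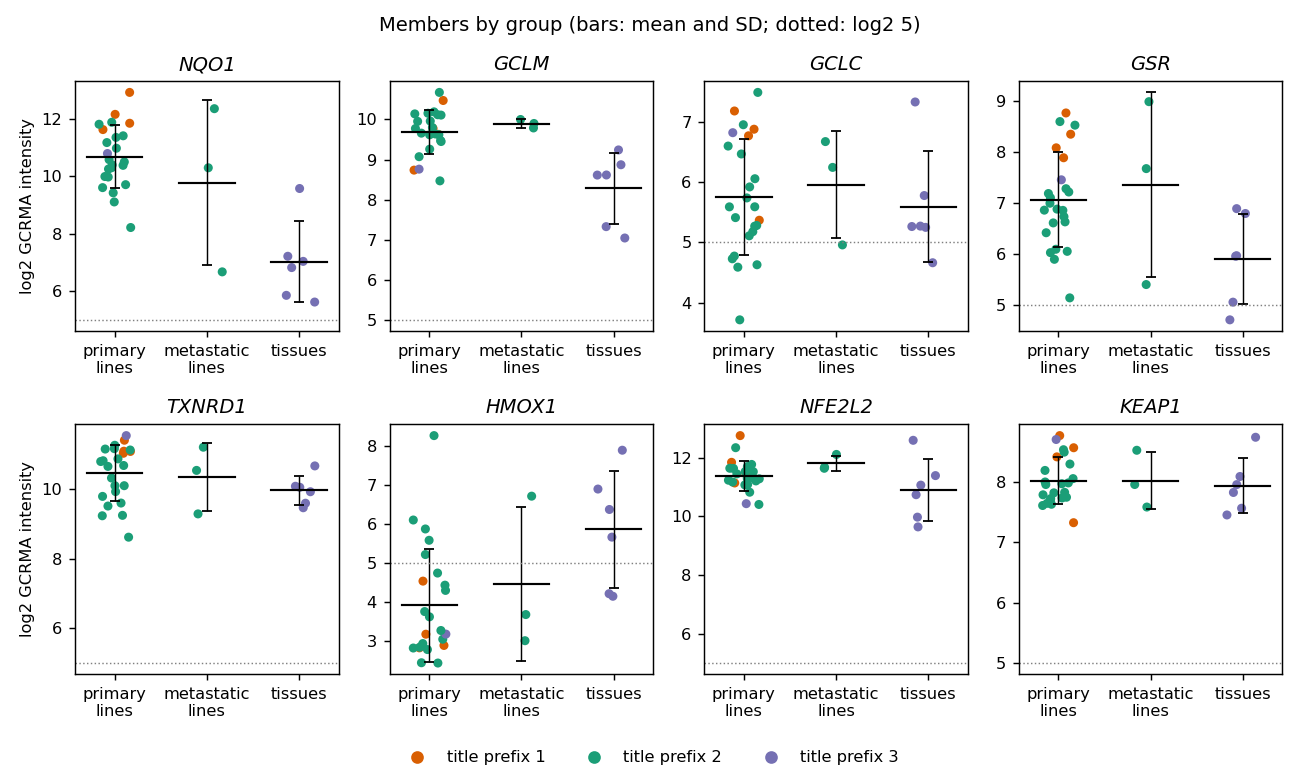
Levels of the 8 genes on each array (y axis, log2 of GCRMA intensity) in 24 primary lines, 3 metastatic lines and 6 tissues. Points are coloured by title prefix, with the averaged line of dog 22 in the colour of title prefix 2; horizontal bars and whiskers are mean and SD, and the dotted line is log2 5. For NQO1, 5 of 6 tissues lie below every primary line, while HMOX1 overlaps between groups.

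**Figure D2:**
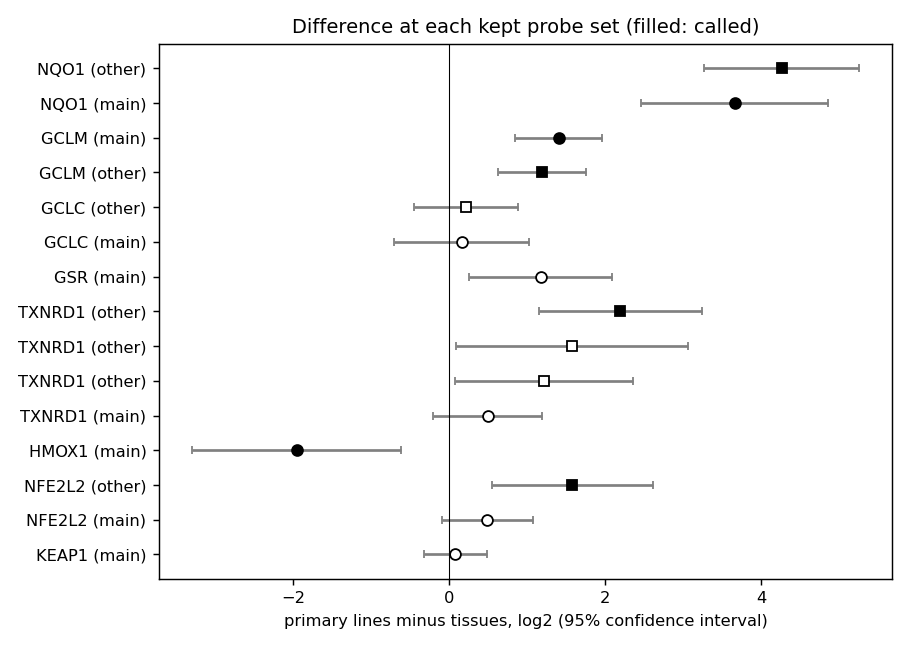
Difference between 24 primary lines and 6 tissues (x axis, log2, with 95% confidence interval) at the 15 kept probe sets of the 8 genes, each fitted on its own. Circles are the probe sets that stood for the genes, squares the others, and filled symbols were called. Both NQO1 and both GCLM probe sets were called, while TXNRD1 and NFE2L2 had 1 called probe set each that did not stand for the gene. TXNRD1 probe sets C and D (1.57 and 1.21) were kept through the lines, so their intervals are a description.

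Dogs 22 and 23 gave both a line and a tissue. NQO1 was higher in the line by 4.14 in dog 22 and by 4.13 in dog 23. NFE2L2 was higher in the line by 1.26 and 1.99, GCLM by 2.58 and 0.46, and KEAP1 by 0.58 and 0.28. HMOX1 went opposite ways, with the line at 3.04 and the tissue at 6.37 in dog 22, and the line at 6.10 and the tissue at 4.15 in dog 23. GCLC was at 6.05 in the line and 4.66 in the tissue of dog 22 and at 5.59 and 5.78 in dog 23. The TXNRD1 differences were 1.53 and 0.27 and those of GSR 0.13 and -0.06, and the GSR value of dog 22 averages 1 line array at -0.63 and 1 at 0.89 from the tissue. Between the line arrays of dog 22, the array of title prefix 3 was higher by 1.88 for TXNRD1, 1.52 for GSR and 1.13 for NQO1, so differences of that size also occurred between arrays of lines from 1 dog.

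Other genes of the pathway, in 7 lists with 122 symbols, were measured for 83. Lines exceeded tissues for 9 of the 83 and fell below them for 9, which is 21.7% called against the background of 14.6%. The counts include 4 genes that exceeded log2 5 hardly or not at all in the group where they were lower: CHAC1 on 0 tissue arrays, ALDH1A1 on 0 line arrays, and MGST2 and SESN3 on 1 line array each. The median difference was 0.09. The glutathione list had 1 of 14 tested genes higher and 2 lower in lines, the thioredoxin list 2 and 3 of 21, NADPH supply 2 and 0 of 9, haem and iron 1 and 1 of 9, detoxification and export 2 and 1 of 15, superoxide and peroxide enzymes 0 and 1 of 3, and regulators and partners 1 and 1 of 12.

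CHAC1, which degrades glutathione, exceeded log2 5 on 23 of 24 primary lines (mean 6.92) and 0 of 6 tissues, so it was kept through the lines and its difference is given no test. PIR, a nuclear iron-binding protein, was higher by 2.57, and PTGR1, which reduces reactive aldehydes and prostaglandins, by 1.97. BLVRA, the biliverdin reductase that acts downstream of haem oxygenase, was higher by 1.93, opposite in direction to HMOX1. SQSTM1, the autophagy receptor that can sequester KEAP1, was higher by 1.77, and ME1, a NADPH-forming malic enzyme, by 1.44 (limma, adjusted p from 2.2e-05 to 0.00693 for these 5).

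Genes lower in lines came from several of the lists. ALDH1A1, a retinal and aldehyde dehydrogenase, exceeded log2 5 on 5 of 6 tissues (mean 8.41) and 0 of 24 primary lines, and MGST2, a microsomal glutathione transferase, on 4 of 6 tissues (mean 7.21) and 1 of 24 primary lines. Both were kept mainly through the tissues, so their differences are given no test. SLC40A1, the iron exporter ferroportin, had -3.11, the peroxidase GPX7 -2.56, the stress-induced SESN1 -2.01 and the methionine sulfoxide reductase MSRB1 -1.99 (limma, adjusted p from 7.0e-05 to 0.0106 for these 4). Like these genes, the macrophage and endothelial markers given above were lower in lines than in tissues, and their part was not tested.

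The 4 lines of title prefix 1 were then set against the 19 of title prefix 2, a comparison added after the TXNRD1 probe sets were seen to split. Both groups hold primary lines of different dogs, and the labels do not describe how culture or array handling differed by prefix. At TXNRD1 probe set C the title prefix 1 lines lay between 8.41 and 9.53 and the title prefix 2 lines between 3.26 and 5.57, with no overlap. At probe set D the ranges were 6.16 to 6.83 and 2.32 to 4.29, and only those 4 arrays of all 34 exceeded log2 5. Since C and D prompted the comparison, they are given as a description, with no test. Probe set B differed by 1.76 with overlap (limma, adjusted p = 0.0206), and probe set A by 0.94, which was not called (limma, adjusted p = 0.0938). The probe sets of this one gene thus split the lines to different degrees, and the background was 11.2% of kept probe sets called at 2-fold. The share of all kept probe sets without overlap is not given, so how usual such a split is cannot be read here.

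NQO1 and GSR also passed that comparison, with overlapping ranges. NQO1 was at 11.62 to 12.92 in the 4 lines of title prefix 1 and at 8.21 to 11.88 in the 19 of title prefix 2, a difference of 1.80 (SE 0.49; limma, adjusted p = 0.013). The second NQO1 probe set had 1.43 and was not called (limma, adjusted p = 0.0831). GSR was at 7.89 to 8.77 against 5.14 to 8.60, a difference of 1.52 (limma, adjusted p = 0.0206). SLC7A11, the cystine importer that feeds glutathione synthesis, also had no overlap, at 5.62 to 6.94 against 1.97 to 3.14. This is a description with no test and no background for overlap, since SLC7A11 was picked for this split and was kept through those 4 lines. GCLM (-0.09), HMOX1 (-0.72), NFE2L2 (0.43) and KEAP1 (0.36) were not called. Title prefix and any difference between these tumours cannot be told apart.

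**Figure D3:**
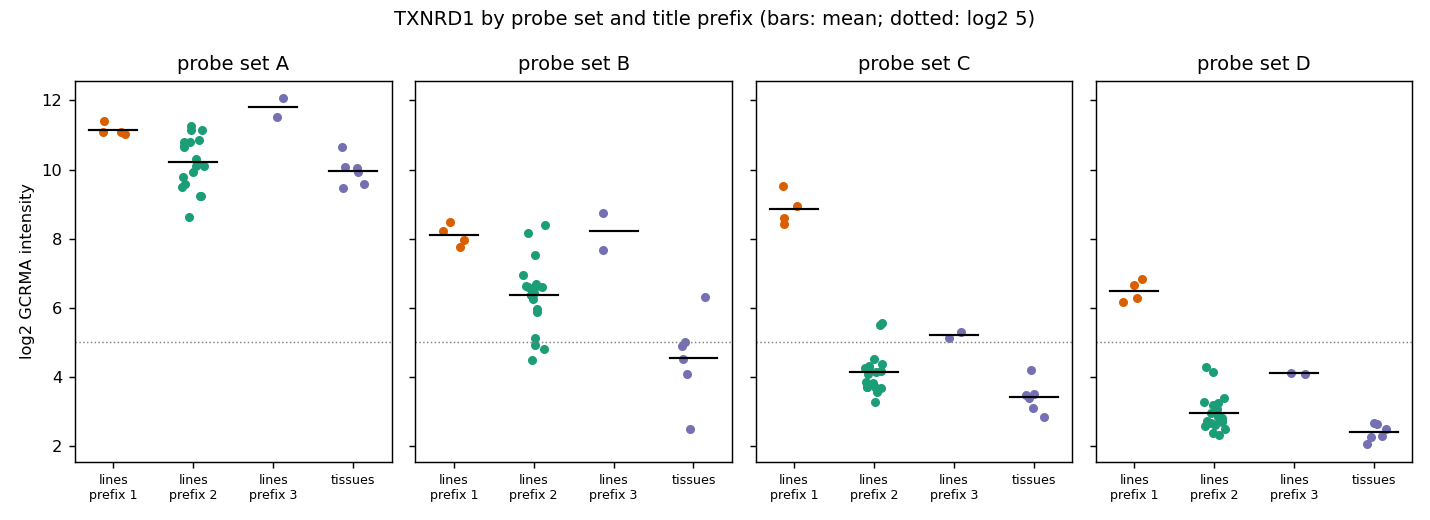
TXNRD1 at its 4 kept probe sets, A to D (y axis, log2 of GCRMA intensity), in lines of title prefixes 1, 2 and 3 and in tissues; each point is 1 array, with both line arrays of dog 22 apart, bars are means and the dotted line is log2 5. At C and D the 4 lines of title prefix 1 lie above all 19 lines of title prefix 2, and at A and B the ranges overlap.

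The 3 metastatic lines spread widely at NQO1 and GSR. None of the 8 genes and none of the 83 other pathway genes was called against primary lines (limma, adjusted p under 0.05; background 0.0127% of genes called). At an unadjusted p under 0.05 there were 0 of the 8 genes, 4 of the 83 and 533 of all genes. NQO1 was at 6.67, 12.35 and 10.29 in metastatic lines 1, 2 and 3, so line 1 was below every primary line and line 2 above all but primary line 4. Metastatic line 1 is the array with the largest 3′ to 5′ differences of this group, and the part of RNA quality in its values was not tested. At the second NQO1 probe set metastatic line 1 was at 8.77, within the primary range of 6.82 to 12.24. GSR was at 5.40, 8.99 and 7.68, with metastatic line 2 above every primary line.

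HMOX1 was at 3.01, 6.71 and 3.68 and GCLC at 4.96, 6.67 and 6.24, so metastatic line 1 was lowest and line 2 highest for each of NQO1, GSR, HMOX1 and GCLC. Metastatic line 2 correlated at r = 0.97 with primary line 8 over kept probe sets, and the latter had NQO1 at 11.88, GSR at 8.60 and HMOX1 at 8.26. GCLM had a mean of 9.90 ± 0.11 SD (n = 3) over the metastatic lines, and NFE2L2 was at 11.68, 12.12 and 11.64. TXNRD1 was at 10.53, 11.20 and 9.28 and KEAP1 at 7.59, 7.96 and 8.53. The NQO1 difference from primary lines was -0.91 (SE 0.79; limma, adjusted p = 0.871) and became 0.64 without metastatic line 1 and -2.20 without metastatic line 2. The GSR difference of 0.29 became -0.53 without metastatic line 2, and that of HMOX1, 0.55, became -0.57.

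Survival and breed were tested in the primary lines. Among the 11 lines of dogs with the treatment label SOC, 0 of all genes were called against log2 of the survival label (limma; background 0%), whose unit is not given, while 384 had an unadjusted p under 0.05. HMOX1 had the steepest slope of the 8 genes, 0.90 per doubling of survival (SE 0.34; limma, adjusted p = 0.906), and the slope was 0.24 without primary line 8. The other 7 slopes lay between -0.21 (GCLM) and 0.17 (GSR). In the breed comparison, 10 Rottweiler lines against 7 from Golden Retrievers with a term for sex, no member was called (limma; background 0.0255%), and the differences lay between -0.19 (TXNRD1) and 0.45 (GSR). No other pathway gene was called in either comparison.

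Co-variation of the 8 genes was examined over the 24 primary lines, as 28 pairs. A pair was called when each gene, used as the regressor for all other genes in limma, returned the other at an adjusted p under 0.05, so that the adjustment ran over 7848 genes. The correlations share their arrays, so a sample-wide property of an array enters every pair. NQO1, GSR and GCLC formed the called pairs, 3 of 28. As a background, 1.36% of genes were called with NQO1, 2.98% with GSR, 0.714% with GCLC, 8.77% with KEAP1, 0.0127% (1 gene) with NFE2L2 and 0% with each of HMOX1, GCLM and TXNRD1. At an unadjusted p under 0.05 there were 770 genes with HMOX1, 494 with GCLM and 877 with TXNRD1.

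NQO1 and GSR correlated most closely, with r = 0.73 and Spearman's rho = 0.75 (permutation p = 1.0e-04 and 4.0e-05, n = 24; limma, adjusted p = 0.0247). GSR ranked 9 among 7848 genes by its correlation with NQO1. Without primary lines 4 and 25, the extremes of NQO1, r was 0.85, and within title prefix 2 it was 0.60 (rho = 0.57, permutation p = 0.00645 and 0.0112, n = 19; limma, adjusted p = 0.909). NQO1 and GCLC had r = 0.65 and rho = 0.71 (permutation p = 0.00056 and 0.00021; limma, adjusted p = 0.0493), 0.77 without those lines and 0.64 within title prefix 2 (limma, adjusted p = 0.909). These values are for the main NQO1 probe set. At the second NQO1 probe set r with GCLC was lower, 0.46 over all lines and 0.46 within title prefix 2. With GSR it was 0.63 and 0.57 there, and these r are given with no test. GCLC and GSR had r = 0.67 and rho = 0.65 (permutation p = 0.00042 and 0.00083; limma, adjusted p = 0.0442), 0.65 without primary lines 12 and 24 and 0.53 within title prefix 2 (limma, adjusted p = 0.599).

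The adjusted p of these pairs crossed the threshold in several alternatives, while r stayed positive for the 3 pairs in every alternative run. Within title prefix 2, and likewise in fits with a title prefix term, 0 of 28 pairs were called, and in those fits the 3 partial correlations were 0.57, 0.58 and 0.58. Without primary line 4, which carried macrophage and endothelial transcripts, GCLC with GSR was the only called pair, and NQO1 had r = 0.77 with GCLC and 0.70 with GSR (limma, adjusted p = 0.0528 and 0.0845). Without primary line 9, of the closest pair of arrays, NQO1 with GSR was the only one, and r was 0.65 for NQO1 with GCLC and 0.67 for GCLC with GSR (limma, adjusted p = 0.0608 and 0.0533). Without primary lines 4 and 25, and also with primary and metastatic lines together, all 3 pairs were called and GCLC with KEAP1 as the fourth (limma, adjusted p = 0.0378 and 0.0457 for the latter).

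NFE2L2 followed NQO1 to a like degree without passing the call at its main probe set. NFE2L2 and NQO1 had r = 0.65 and rho = 0.59 (permutation p = 0.00054 and 0.00266; limma, adjusted p = 0.0846), which fell to r = 0.40 without primary lines 4 and 25, the highest and lowest for both genes. Within title prefix 2 their r was 0.68 (limma, adjusted p = 0.909) and 0.49 without primary lines 8 and 25. The second NFE2L2 probe set had r = 0.78 and rho = 0.78 with NQO1, 0.73 without primary lines 4 and 25 and 0.68 within title prefix 2. With the most variable probe set standing for each gene this pair was called (limma, adjusted p = 0.00625), as was NFE2L2 with GSR (r = 0.64, adjusted p = 0.0319). NFE2L2 and GCLC had r = 0.33 over all lines and 0.72 within title prefix 2 (limma, adjusted p = 0.445 and 0.363).

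Over all 24 lines NFE2L2 and its inhibitor KEAP1 had r = -0.12 and rho = 0.03 (permutation p = 0.571 and 0.895). The r was 0.12 without primary line 4, which had the most NFE2L2 and the least KEAP1, and 0.45 within title prefix 2. KEAP1 correlated with GCLC at r = 0.64 (rho = 0.57, permutation p = 0.00089 and 0.00422), which was not called (limma, adjusted p = 0.0821), and at 0.48 within title prefix 2.

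The correlations of GCLM depended on its probe set. At the main one, those with the other 7 genes lay between -0.09 (TXNRD1) and 0.11 (HMOX1), and that with GCLC, its partner subunit, was 0.03 (rho = 0.05, permutation p = 0.874 and 0.831). Within title prefix 2 the pair of subunits had r = 0.05. The second GCLM probe set had r = 0.38 with GCLC (rho = 0.46, permutation p = 0.0682 and 0.023), 0.34 with GSR (permutation p = 0.104) and 0.32 with NQO1 (permutation p = 0.125), and 0.40, 0.21 and 0.29 within title prefix 2. TXNRD1 at probe set A correlated with NQO1 at 0.59 (permutation p = 0.00209; limma, adjusted p = 0.201) and at 0.55 within title prefix 2. This too differed by probe set. With NQO1, B had r = 0.42 over all lines and 0.13 within title prefix 2, C had 0.72 and 0.63, and D had 0.72 and 0.50. Probe sets A and B correlated with each other at 0.26 and -0.105. HMOX1 correlated with NQO1 at 0.30 over all lines and at 0.58 within title prefix 2 (0.49 without primary lines 8 and 25), and with GSR at 0.38 and 0.63 (limma, adjusted p = 0.502 and 0.517). For HMOX1 with GSR, rho was lower, 0.27 over all lines and 0.37 within title prefix 2 (permutation p = 0.207 and 0.119). Within title prefix 2 the r of that pair was 0.51 without primary lines 8 and 20. Of the 15 pairs among the 6 measured targets, 13 had a positive r over all lines, with a median of 0.32, and 15 within title prefix 2, with a median of 0.31. The share over pairs of other genes is not given, and these 15 pairs share 6 genes and the same arrays. The counts are therefore a description.

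**Figure D4:**
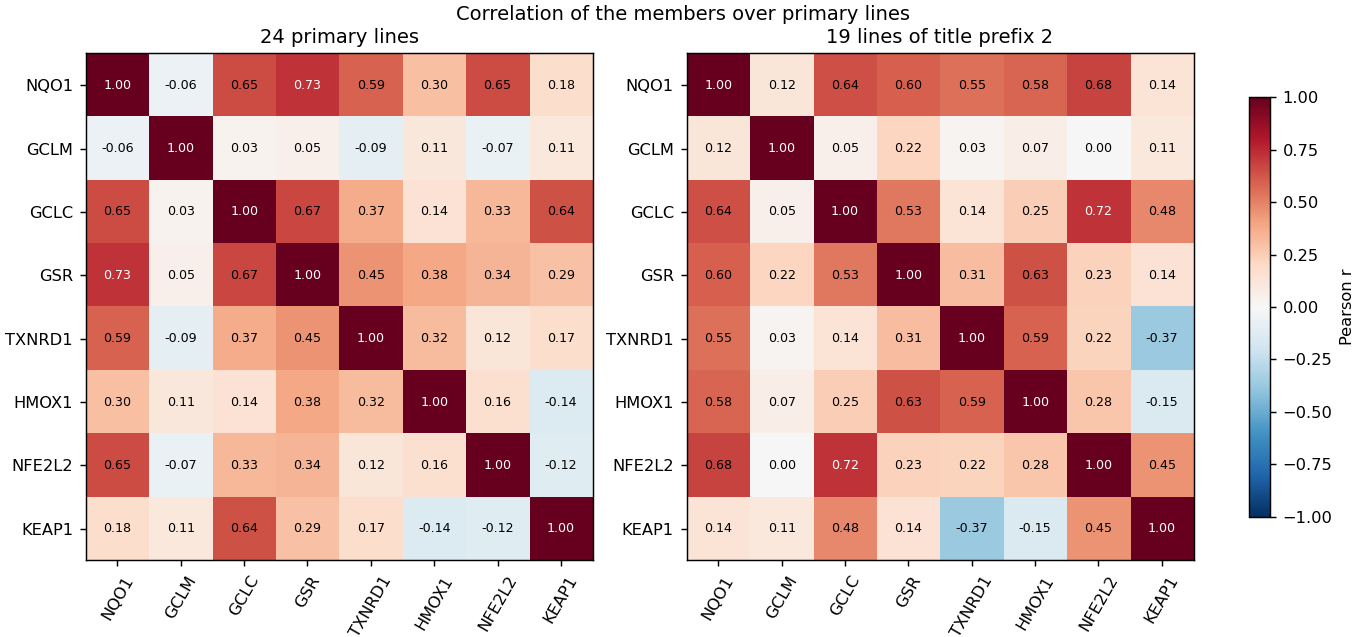
Pearson's r between the 8 genes over the 24 primary lines (left) and over the 19 lines of title prefix 2 (right), as numbers and colours from -1 to 1. NQO1, GCLC and GSR have r of 0.65 to 0.73 on the left and 0.53 to 0.64 on the right, and the main probe set of GCLM has r under 0.25 with every other gene in both.

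**Figure D5:**
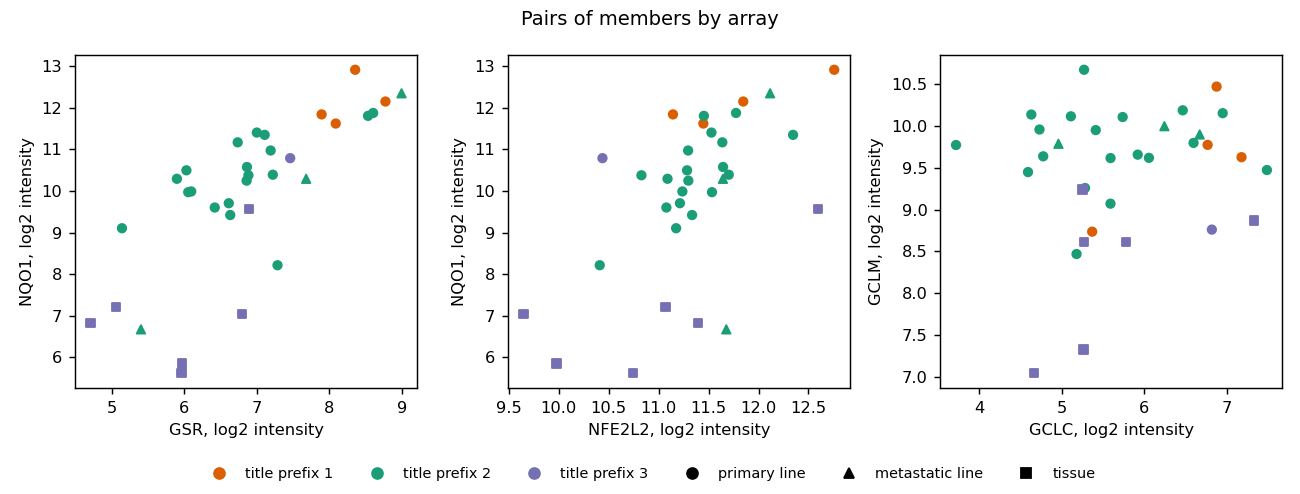
Levels of 3 pairs of genes on each array (both axes, log2 of GCRMA intensity), with shape for sample type and colour for title prefix. Over the 24 primary lines NQO1 has r = 0.73 with GSR and 0.65 with NFE2L2, and the main probe set of GCLM has r = 0.03 with GCLC; metastatic line 1 lies at 6.67 for NQO1.

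The lines were also ordered by a target score, the mean of the 6 measured targets after each was standardised over the 24 lines. Primary line 8 had the highest score (1.40), then primary lines 10 (0.98), 1 (0.96), 3 (0.84) and 2 (0.57), and primary line 24 the lowest (-1.33). All 4 lines of title prefix 1 ranked among the first 8. Over the 24 lines, the 8 genes outside the list with the highest correlation to this score were LRRC40 (r = 0.72), CASP14 and TMEM154 (both 0.71), DUSP18 and EXOC5 (both 0.70), UHMK1 and PDCD6IP (both 0.69) and WDR91 (0.68). Within title prefix 2 their r lay between 0.51 (PDCD6IP) and 0.74 (TMEM154). Of these, CASP14, TMEM154, DUSP18 and WDR91 were dim, with mean levels of 3.40 to 3.96.

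Among the 83 other pathway genes, 2 were called with NQO1 over the 24 lines, both with a positive r, against 107 of 7848 genes. They were SLC7A11, with r = 0.71, and BLVRA, with r = 0.64 (limma, adjusted p = 0.0469). SLC7A11 exceeded log2 5 only in the 4 lines of title prefix 1, where NQO1 was also higher. It was kept through those lines, so its r is a description with no test. Within title prefix 2, where SLC7A11 stayed below that level, its r was 0.60. For BLVRA it was 0.65 there (limma, adjusted p = 0.909). The median r with NQO1 was 0.11 over the 83 pathway genes and 0.00 over all genes.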

How the data were processed

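The authors deposited 1 intensity per probe set and array, made with GCRMA per the submitters' processing notes; its version and settings are not stated. Values were on a linear scale, so log2 was taken. Arrays have no read depth, and their number limits the precision. Of 43035 probe sets, 111 controls were left out, and 18592 exceeded log2 5 on at least 3 of 34 arrays and were kept. The probe set with the highest mean stood for a gene, named through the platform annotation, which can be old. Groups came from the source labels. Tests used limma 3.58.1 (lmFit, eBayes) under R 4.3.3, p-values were adjusted over all genes by Benjamini-Hochberg, all 3 groups shared 1 fit, and the tests were checked on simulated data. Correlations had two-sided permutation tests of 100000 draws in Python 3.11.15.

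Named were the 8 genes, up to 6 called pathway genes per direction and comparison, and the 8 genes closest to the target score. SLC7A11 in the title prefix comparison was chosen after its values were seen. The members and lists were chosen with earlier results of these data known. The actin measure was AFFX-Cfa-actin-3_s_at minus AFFX-Cfa-actin-5_s_at. Lines and tissues shared an animal in dogs 22 and 23, per the labels; their deviations from the group means correlated at 0.157 and -0.175. Separate cultures per line were not labelled, so p-values measure the spread between dogs and arrays together.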

Additional observations from a re-analysis of the deposited data

Results flagged for a closer look

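GSR in the 7 Golden Retriever lines had 1 value far from the others: primary line 1, of title prefix 1, was at 8.77, and the next highest of the 7 lines at 7.00, a gap of 0.662 of the whole range. It was the only one of 24 tests of this kind (8 genes in the tissues, the Rottweiler lines and the Golden Retriever lines), and chance alone gives about 1 such value in 20 tests.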

How the results depend on the processing

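For lines against tissues, 1148 genes were called, and 493 with title prefix as a covariate (263 shared), 251 in title prefix 3 alone (140 shared) and 707 in females alone (644 shared). Of the 8 genes, 5 were called with the most variable probe set per gene and 1 in title prefix 3 alone, against 3. NFE2L2 was -0.13 in both title prefix fits, and KEAP1 -0.023 with array weights. Dropping 1 tissue at a time, KEAP1 ran from -0.015 (without tissue 6) to 0.24 and GCLC from -0.024 (without tissue 5) to 0.51. With dog as a replicate block (estimated correlation -0.03) 1153 genes and the same number of members, 3, were called, and the block altered no call of a member. Dropping 1 tissue at a time left 987 to 1178 genes and 2 to 4 members called.

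For metastatic against primary lines 1 gene was called, 0 at a filter of log2 7 or with the most variable probe set, 4 with array weights, and 0 to 24 without 1 metastatic line. KEAP1 turned to -0.0035 with quantile normalization, -0.019 with the line arrays of dog 22 apart, -0.03 without primary line 4, and -0.017 without primary line 9. NFE2L2 was -0.15 with the most variable probe set and TXNRD1 0.13 in title prefix 2 alone. Dropping 1 metastatic line at a time gave ranges of -2.20 to 0.64 for NQO1, -0.57 to 1.28 for HMOX1, -0.15 to 0.70 for GCLC, -0.53 to 1.26 for GSR, -0.55 to 0.41 for TXNRD1 and -0.25 to 0.22 for KEAP1.

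For survival, 1 gene was called without primary line 9 against 0. In title prefix 2 alone NQO1 was 0.16, TXNRD1 0.10 and KEAP1 0.11, and without primary line 8 GCLC was -0.12 and GSR -0.19, against 0.046 and 0.18 without primary line 9. For breed, 0 genes were called with no filter, 1 with quantile normalization and 1 in title prefix 2 alone, against 2; HMOX1 was 0.25 in title prefix 2 alone and 0.23 with no covariate.

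For co-variation, the 3 called pairs became 0 in title prefix 2 alone, 1 without primary line 4 or 9, 0 without the 2 lines farthest from the median of each regressor, 1 with quantile normalization, 5 with the most variable probe set, 0 in fits with a title prefix term, 4 without primary lines 4 and 25 and 4 with primary and metastatic lines together. The r of 10 of 28 pairs changed sign in at least 1 alternative, and that of 0 of the 3 called pairs did. TXNRD1 with KEAP1 (0.17) was -0.37 in title prefix 2 alone and -0.10 with the title prefix term, HMOX1 with TXNRD1 (0.32) was -0.27 with the most variable probe set, GCLM with TXNRD1 (-0.09) was 0.026 in title prefix 2 alone and 0.047 with the term, and GCLM with KEAP1 (0.11) lay between -0.073 and -0.042 without primary line 4, lines 4 and 17 or lines 4 and 25. NQO1 with GCLM was 0.12 in title prefix 2 alone, 0.13 without primary line 4 (without primary line 9 it kept its sign at -0.070) and 0.076 without primary lines 4 and 25. GCLM with NFE2L2 was 0.19 without primary line 4 (it kept its sign at -0.064 without primary line 9), 0.14 without primary lines 4 and 17 and 0.15 without 4 and 25. NFE2L2 with KEAP1 was 0.45 in title prefix 2 alone, 0.12 without primary line 4 (it kept its sign at -0.14 without primary line 9), 0.094 without primary lines 4 and 12 and 0.012 without 4 and 25. GCLC with GCLM was -0.0014 with quantile normalization and -0.030 without primary lines 4 and 25, where TXNRD1 with NFE2L2 was -0.13. NQO1 with KEAP1 was -0.048 with title prefix as a covariate. The cause was not tested for any of these. Fits on every probe set, of title prefix 1 against 2, with title prefix as a covariate in co-variation, and without the lines of title prefix 1, primary line 8 or primary lines 4 and 25 were chosen after seeing the data. Single genes and pairs kept direction and side of the threshold in 127 of the lines against tissues values and in 110 of the co-variation values; 11 and 15 lost a call, and 8 and 4 gained one.

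Limits: HMOX1 lay under log2 5 on 19 of 24 lines, so its low values have little meaning. Both title prefix fits compare the same 2 line arrays with the 6 tissues, so they share 1 estimate per gene and are not separate checks. SLC7A11 and TXNRD1 probe set D were near the floor outside title prefix 1. Probe set C was mostly dim there. It exceeded log2 5 on 2 of 19 lines of title prefix 2 (highest 5.57) and 0 of 6 tissues. It also did so on 1 of 3 metastatic lines and on 2 line arrays of title prefix 3.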
